A study of Homo sapiens with 6 samples.

Results

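Nodal and Activin are secreted factors of the TGF-beta superfamily, and 10 genes of their signalling pathway were followed here among the 16199 genes of a count table from human embryonic stem cells. A ligand binds type II receptors (ACVR2A, ACVR2B), which phosphorylate a type I receptor (ACVR1B), which in turn phosphorylates SMAD2 and SMAD3. These enter the nucleus with a common partner and switch on targets that include NODAL itself, its antagonists LEFTY1 and LEFTY2, and the inhibitory SMAD7. The pathway holds human embryonic stem cells in the primed pluripotent state, and higher signalling leads them towards mesendoderm. The genes were chosen by symbol for their place in this pathway, and all 10 were found. LEFTY1 was included because it is a described target of the microRNA miR-302 and because its counts were low in the homozygous libraries, so its homozygous values are given as a description, without a test.

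The cells were H1, an established human embryonic stem cell line. Dicer was either wild-type or held the substitution S1344L. It is the RNase III enzyme that frees microRNAs from their hairpins. There were 3 genotypes with 2 libraries each: wild-type, S1344L hemizygous (written pm/fs in the protocol) and S1344L homozygous (pm/pm). The mutant lines had been made by CRISPR-Cas9 editing, and how many clones were used is not given in the sources used here. Cells of every genotype, wild-type included, were expanded for 10 days without doxycycline, with 2 dishes of 15 cm per sample, and irradiated 2 times with 150 mJ/cm2 of 254 nm light. In iCLIP light fixes RNA to the protein that touches it, and here RNA bound to Ago2, the protein that carries a microRNA to its target, was pulled down. The table thus holds reads per gene from an Ago2 pull-down. Whether a lower count came from less RNA in the cell or from less RNA held by Ago2 cannot be told apart, and neither can fewer cells of a type and less RNA per cell.

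Libraries held 38164848 to 52924532 counts. Values are given as CPM, read counts scaled to library size with TMM factors. CPM is not per length, so the levels of different genes are not compared. DICER1 averaged 148 ± 30.6 CPM (SD, n = 2) for wild-type, 107.4 ± 15.6 for hemizygous and 123 ± 7.80 in homozygous libraries, and AGO2 ranged from 199 to 277 CPM over the 6 libraries. This count does not check the substitution itself. Of 10 pluripotency markers all 10 were in the table, with a summed level of 9510 to 11142 CPM, as the cell type label states. Of 10 mesendoderm markers 2 were in the table, MIXL1 and CXCR4, and their sum lay between 2.12 and 5.23 CPM. Of the trophoblast and amnion list 3 of 10 markers were in the table (48.9 to 65.6 CPM summed), of the neuroectoderm list 7 of 10 (433 to 594 CPM) and of the stromal list 9 of 12 (810 to 1162 CPM). Whether both libraries of each genotype were separate cultures is not stated by the labels. The p-values then reflect the spread from library to library alone, and that spread may be technical.

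The microRNAs that link LEFTY1 and LEFTY2 to Dicer are those of the miR-302 and miR-372 clusters, which are abundant in human embryonic stem cells. Their 3p arms are shown because they share the seed through which a target is recognised, while the 5p arms of the same hairpins do not carry it. Sequences are from RefSeq (GRCh38.p14), written 5′ to 3′, with the seed, bases 2 to 8, in capitals.
miR-302a-3p: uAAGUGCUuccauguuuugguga
miR-302b-3p: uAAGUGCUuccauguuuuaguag
miR-302c-3p: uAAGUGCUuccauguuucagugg
miR-302d-3p: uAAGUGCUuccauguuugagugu
miR-372-3p: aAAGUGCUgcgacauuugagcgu
miR-373-3p: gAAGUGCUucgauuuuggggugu
miR-302a-5p: aCUUAAACguggauguacuugcu
miR-302d-5p: aCUUUAACauggaggcacuugc
The seed AAGUGCU is shared by 12 of the 2370 mature human microRNA names in that table, the 6 printed above among them. The microRNAs themselves were not measured in these values, and target sites in the LEFTY genes were not examined here.

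LEFTY1 and LEFTY2 encode secreted inhibitors that bind Nodal and its co-receptor. They are neighbouring, near-identical genes on chromosome 1, LEFTY1 at chr1:225886282-225889146 and LEFTY2 at chr1:225936603-225941220 (GRCh38), with 47456 bases between them. Reads could be split between copies this similar, and how the authors' counting treated them is not given in the sources used here. Neither overlaps another RefSeq gene.

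LEFTY1 was lower in every mutant library than in both wild-type libraries. It stood at 11.9 and 9.01 CPM in wild-type replicates 1 and 2, at 5.40 and 0.588 CPM in hemizygous and at 2.31 and 0.862 CPM in homozygous libraries. The group means were 10.5 ± 2.06 CPM (SD, n = 2), 2.99 ± 3.40 and 1.59 ± 1.03. Neither mutant genotype overlapped wild-type, the mutant genotypes overlapped each other, and the lowest value of all was hemizygous replicate 2. That library held 31 LEFTY1 reads (95% exact Poisson interval 21.1 to 44.0, counting error only) and homozygous replicate 2 held 35 (24.4 to 48.7), against 618 and 352 in wild-type.

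In hemizygous against wild-type cells the log2 fold change of LEFTY1 was -1.82 (SE 0.90), and the adjusted p was 1.00 by edgeR's quasi-likelihood test with Benjamini-Hochberg adjustment over all 16199 genes. The size of this difference rested on hemizygous replicate 2: it was -0.96 without that library and -4.14 without hemizygous replicate 1. In homozygous against wild-type cells, the comparison for which the gene was chosen, LEFTY1 was at -2.71 (SE 0.94) on the log2 scale, or 6.59 times less on the mean CPM. Between replicate 1 libraries the log2 difference was -2.35, and between replicate 2 libraries it was -3.35.

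LEFTY2 followed LEFTY1 in direction and was less far from wild-type. Its libraries stood at 14.6 and 5.63 CPM in wild-type, at 6.88 and 2.24 CPM in hemizygous and at 5.62 and 2.02 CPM in homozygous cells. The means were 10.1 ± 6.31, 4.56 ± 3.28 and 3.82 ± 2.55 CPM (SD, n = 2). Both homozygous libraries lay below both wild-type libraries by a margin of 5.62 against 5.63 CPM, and hemizygous replicate 1 lay above wild-type replicate 2. Replicate 1 was the higher library in every genotype, by 2.59, 3.07 and 2.78 times in wild-type, hemizygous and homozygous cells.

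Compared within a replicate number, LEFTY2 was lower in the mutants by nearly the same amount each time. The log2 difference of homozygous from wild-type was -1.37 for replicate 1 and -1.47 for replicate 2, and that of hemizygous from wild-type was -1.08 and -1.32. Over all 6, the homozygous log2 fold change was -1.40 (SE 0.72) and the hemizygous -1.16 (SE 0.72), with adjusted p = 1.00 by edgeR in both. Without wild-type replicate 1 these values were -0.55 and -0.31, since the remaining wild-type library was the lower. These fits did not pair the libraries. With the replicate number as a block, LEFTY2 was at -1.42 (SE 0.17) in homozygous and at -1.20 (SE 0.17) in hemizygous cells. Its adjusted p by edgeR was then 0.274 and 0.269, so it was not called. Between the mutant genotypes LEFTY2 differed by -0.24 (SE 0.72, homozygous against hemizygous).

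Because the copies can share reads, their counts were also summed. The sum stood at 26.5 and 14.6 CPM in wild-type, at 12.3 and 2.83 CPM in hemizygous and at 7.93 and 2.88 CPM in homozygous libraries. Both mutant genotypes lay below both wild-type libraries, with log2 fold changes of -1.45 (SE 0.74) for hemizygous and -1.92 (SE 0.75) for homozygous cells. LEFTY1 made up 45.0% and 61.5% of the pair in wild-type libraries, 43.9% and 20.8% in hemizygous, and 29.2% and 29.9% in homozygous.

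Some genes listed as markers of other cell types also stood at different levels between genotypes. The summed neuroectoderm list lay at 474 to 522 CPM in wild-type, at 494 to 594 CPM in hemizygous and at 433 to 445 CPM in homozygous cells. Most of each sum was NES alone, at 472 and 429 CPM in wild-type, 515 and 400 in hemizygous and 386 and 371 in homozygous libraries. The sum therefore says little about the other genes of the list. Of its 7 measured genes 6 were above 0 and 1 below in hemizygous against wild-type cells, and 4 were above and 3 below in homozygous against wild-type cells. ZIC1, DCX and FABP7 were higher than wild-type in both hemizygous (8.13% of all genes) and both homozygous libraries (14.2%). OTX2, NES and MAP2 were lower in both homozygous libraries (13.6% of all genes), and TUBB3 was lower in both hemizygous libraries (9.21%). Farthest from wild-type in hemizygous cells was ZIC1, a neural transcription factor, which stood at 17.9 and 16.3 CPM in wild-type, at 41.0 and 58.9 CPM in hemizygous and at 28.2 and 28.0 CPM in homozygous cells, without overlap. DESeq2 called ZIC1 in hemizygous against wild-type cells, while edgeR gave it an adjusted p of 0.71. The summed stromal list was lower in homozygous cells, at 810 to 882 CPM against 1002 to 1162 CPM in wild-type, and 8 of its 9 measured genes were below 0. The largest part of that sum was THY1, at 420 and 468 CPM in wild-type and at 333 and 394 CPM in homozygous libraries. Whether the stem cells themselves held THY1 and the other listed transcripts was not tested. The sum therefore does not measure stromal cells. The part of these lists in the LEFTY values was not tested.

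**Figure D1:**
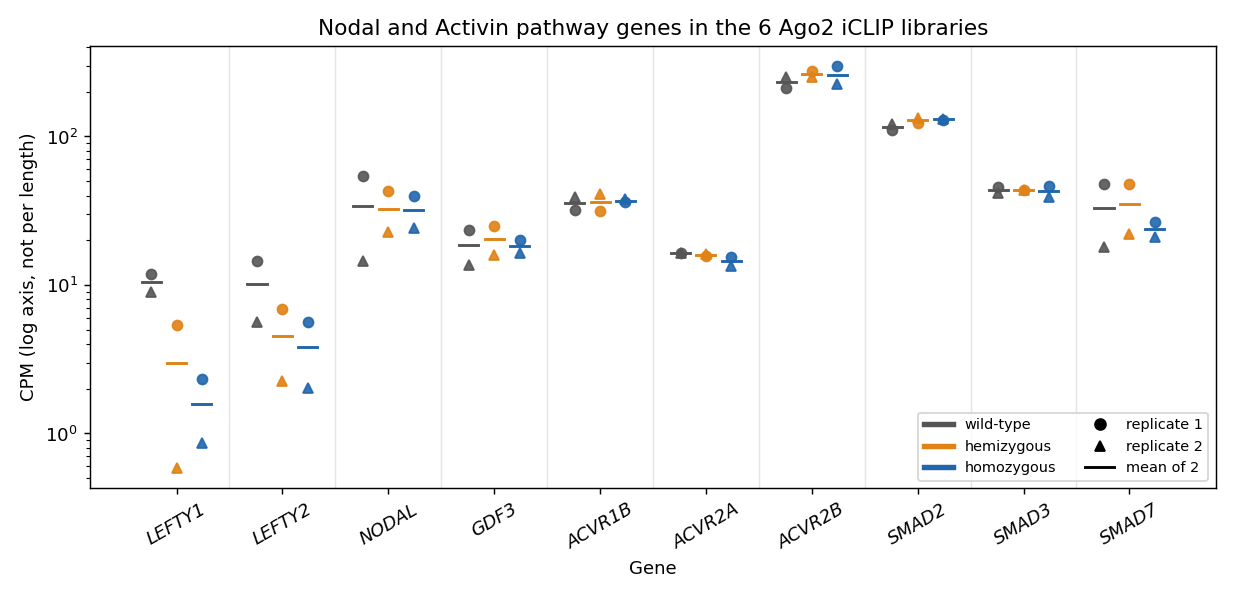
CPM on a log axis for each of the 10 genes in all 6 libraries, with genotype by colour, replicate number by marker shape and a bar at the mean of 2 libraries. LEFTY1 lies between 9.01 and 11.9 CPM in wild-type and at or below 5.40 CPM in every mutant library, while SMAD2, SMAD3 and the receptors keep to narrow ranges.

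NODAL and GDF3 are ligands of this receptor complex. NODAL (chr10:70431936-70447951) stood at 53.8 and 14.4 CPM in wild-type, at 42.8 and 22.7 CPM in hemizygous and at 39.7 and 24.3 CPM in homozygous libraries. The wild-type libraries were at once the highest and the lowest of the 6, so the genotypes overlapped fully. The means were 34.1 ± 27.8, 32.7 ± 14.2 and 32.0 ± 10.8 CPM (SD, n = 2), with log2 fold changes of -0.06 (SE 0.60) for hemizygous and -0.09 (SE 0.60) for homozygous cells. The direction depended on the wild-type library used: without wild-type replicate 1 the homozygous value was 1.15, and without wild-type replicate 2 it was -0.74.

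GDF3 (chr12:7689784-7695775), which also binds Nodal's co-receptor, ran from 13.5 to 24.8 CPM. Its means were 18.5 ± 7.02 CPM for wild-type, 20.4 ± 6.23 for hemizygous and 18.2 ± 2.59 for homozygous libraries (SD, n = 2). The groups overlapped, and the log2 fold changes were 0.14 (SE 0.32) and -0.03 (SE 0.32). For neither ligand did the libraries of a mutant genotype all lie on the same side of wild-type.

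The receptors varied little. ACVR1B, the type I receptor, ranged from 31.4 to 40.7 CPM over the 6 libraries, and its log2 fold changes were 0.02 (SE 0.18) for hemizygous and 0.06 (SE 0.18) for homozygous cells. ACVR2A, a type II receptor, stood at 16.4 and 16.3 CPM in wild-type, at 15.7 and 16.2 CPM in hemizygous and at 15.4 and 13.4 CPM in homozygous libraries. Its genotypes did not overlap, yet the hemizygous difference was -0.04 (SE 0.15) and the homozygous -0.18 (SE 0.15), both with adjusted p = 1.00 by edgeR. ACVR2B, the other type II receptor, stood at 214 and 250 CPM in wild-type, at 275 and 252 CPM in hemizygous and at 298 and 224 CPM in homozygous libraries. Both hemizygous libraries were above wild-type, by a log2 fold change of 0.18 (SE 0.18). The homozygous value was 0.17 (SE 0.18), and it was -0.05 without homozygous replicate 1. ACVR2A overlaps ORC4 and ACVR2B overlaps the antisense gene ACVR2B-AS1, both in the table, so some of their reads are uncertain.

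SMAD2 and SMAD3 are the receptor-activated transcription factors of the pathway. SMAD2 stood at 111 and 121 CPM in wild-type, at 124 and 133 CPM in hemizygous and at 129 and 131 CPM in homozygous libraries. All 4 mutant libraries were above both wild-type libraries, by log2 fold changes of 0.15 (SE 0.13) and 0.17 (SE 0.13), with adjusted p = 1.00 by edgeR. SMAD3 ranged from 39.3 to 46.3 CPM, with the lowest ratio of highest to lowest library among the 10 genes (1.18), and log2 fold changes of -0.0012 (SE 0.14) and -0.03 (SE 0.14).

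SMAD7, the inhibitory SMAD that blocks the type I receptor, stood at 47.7 and 18.1 CPM in wild-type, at 47.7 and 22.0 CPM in hemizygous and at 26.7 and 20.9 CPM in homozygous libraries. Replicate 1 of wild-type and hemizygous cells stood apart from the other 4 libraries. The means were 32.9 ± 20.9, 34.9 ± 18.2 and 23.8 ± 4.07 CPM (SD, n = 2). The log2 fold change was 0.08 (SE 0.51) for hemizygous and -0.47 (SE 0.51) for homozygous cells, and the latter was 0.40 without wild-type replicate 1.

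**Figure D2:**
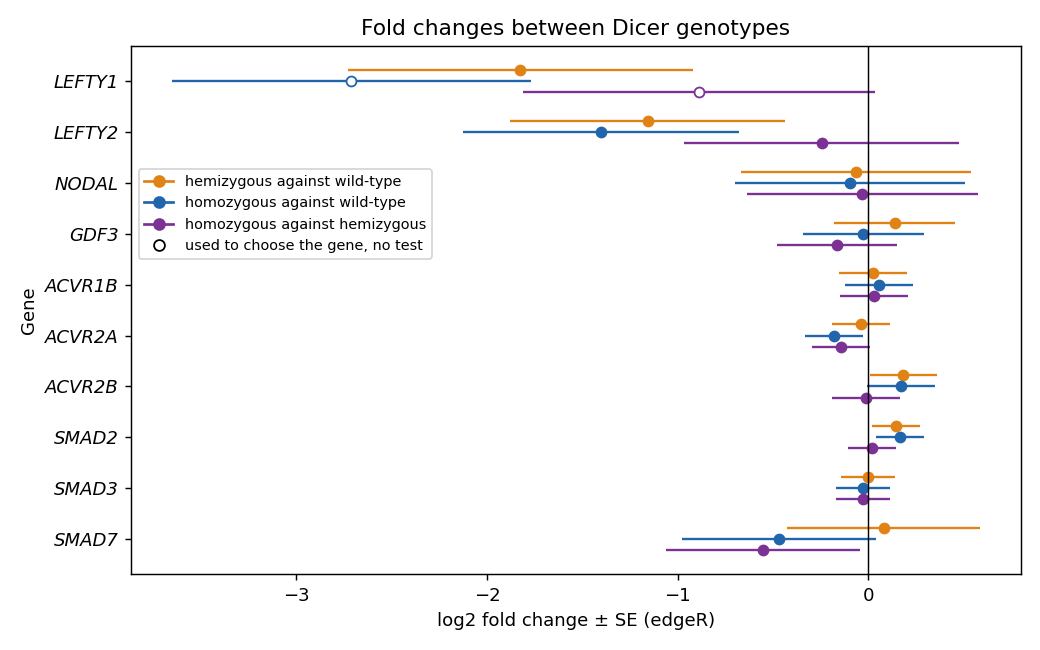
Log2 fold changes with their standard errors for each gene in 3 comparisons, from edgeR's fit over all libraries, with open points for the LEFTY1 values that served to choose the gene. Both LEFTY genes lie left of 0 against wild-type, at -1.16 to -2.71, and the other 8 genes lie between -0.55 and 0.18.

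By edgeR's quasi-likelihood test at an adjusted p of 0.05, 0 of the 10 genes were called in hemizygous against wild-type cells. In homozygous against wild-type cells and between the mutants, 0 of the 9 genes other than LEFTY1 were called. Percent called over all 16199 genes was 0 as well in each of the 3 comparisons. DESeq2 also called 0 of these genes in each. At an unadjusted p of 0.05 by edgeR, 0 of the 10 passed in hemizygous against wild-type cells (0.87% of all genes), and 0 of the 9 genes other than LEFTY1 passed in homozygous against wild-type cells (2.69%) or between the mutants (0.765%). LEFTY1 was chosen for its homozygous counts and is left out of the homozygous comparisons in all of these counts. Both mutant genotypes are set against the same wild-type libraries, so these counts are not independent.

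Counts of genes whose libraries did not overlap were read against the table. In hemizygous against wild-type cells 2 of the 10 were higher in both libraries, ACVR2B and SMAD2 (8.13% of all genes), and 2 were lower, LEFTY1 and ACVR2A (9.21%). In homozygous against wild-type cells, of the 9 genes other than LEFTY1, which was chosen on this comparison, 1 was higher, SMAD2 (14.2%), and 2 were lower, LEFTY2 and ACVR2A (13.6%). Between the mutants 0 were higher in homozygous libraries (11% of all genes) and 1 was lower, ACVR2A (10.4%). The median log2 fold change of the 10 genes was 0.01, -0.06 and -0.09 in these comparisons, where that of all genes was 0.00 each time. The homozygous medians include LEFTY1, which was chosen for its low homozygous counts, so they are not independent of that choice.

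The replicate number separated several of these genes more than the genotype did. In 6 of the 10, replicate 1 was above replicate 2 within each of the 3 genotypes (29.9% of all genes): LEFTY1, LEFTY2, NODAL, GDF3, SMAD3 and SMAD7. In 4 of these, NODAL, GDF3, SMAD3 and SMAD7, all 3 replicate 1 libraries were above all 3 replicate 2 libraries (20.9%). The largest gap was that of LEFTY1 in hemizygous cells, at 3.15 on the log2 scale, and in wild-type LEFTY1 differed by 0.40. NODAL differed by 1.90 for wild-type, 0.92 for hemizygous and 0.70 for homozygous cells. SMAD7 differed by 1.40, 1.12 and 0.35.

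ACVR1B and SMAD2 were lower in replicate 1 within each genotype (28.3% of all genes), by at most 0.37 on the log2 scale. For ACVR1B alone of the 10, all replicate 1 libraries were below all replicate 2 libraries (18.7% of all genes). The median gap over all genes was near 0 in every genotype, at 0.01, -0.01 and 0.01. The receptors and the receptor-activated SMADs differed by at most 0.41 in any genotype. The ligands, the antagonists and SMAD7 had larger gaps in most genotypes, but LEFTY1 in wild-type (0.40) and GDF3 and SMAD7 in homozygous cells (0.29 and 0.35) were within that range. Both mesendoderm markers in the table were also higher in replicate 1 of every genotype (29.9% of all genes). MIXL1 stood at 3.07 and 1.23 CPM in wild-type, at 2.95 and 2.39 CPM in hemizygous and at 2.64 and 2.04 CPM in homozygous libraries. The stromal list had a median gap of 0.40 for wild-type, 0.60 for hemizygous and 0.05 for homozygous cells. The trophoblast and amnion list went the other way, with median gaps of -0.43, -0.33 and -0.28. All 3 of its measured genes were lower in replicate 1 of every genotype (28.3% of all genes). The part of these lists in the gaps of the Nodal genes was not tested.

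**Figure D3:**
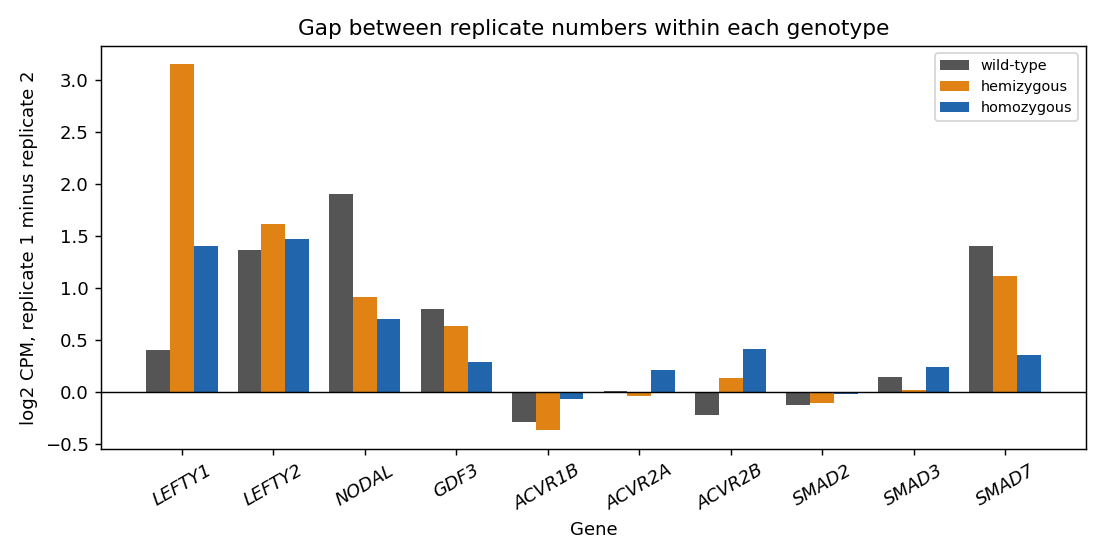
Log2 CPM of replicate 1 minus replicate 2 for each gene, with a bar per genotype. LEFTY1, LEFTY2, NODAL, GDF3 and SMAD7 are above 0 in all 3 genotypes, up to 3.15, while the receptors, SMAD2 and SMAD3 stay between -0.37 and 0.41.

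NODAL, GDF3 and SMAD7 are 3 of the 4 genes in which every replicate 1 library was above every replicate 2 library, and their promoters are shown for that reason. The promoters of SMAD3, the fourth, whose gaps were at most 0.24, were searched but are not printed, and its 5 windows held 0 to 4 of the boxes described here. Each window runs from 250 bases before to 50 bases after a RefSeq start (GRCh38.p14), printed 5′ to 3′ on the gene's own strand, which is the minus strand for all 3. Capitals mark the SMAD-binding box CAGAC on either strand. SMAD7 has 3 such windows, and the one farthest upstream is shown.
NODAL, chr10:70441632-70441931: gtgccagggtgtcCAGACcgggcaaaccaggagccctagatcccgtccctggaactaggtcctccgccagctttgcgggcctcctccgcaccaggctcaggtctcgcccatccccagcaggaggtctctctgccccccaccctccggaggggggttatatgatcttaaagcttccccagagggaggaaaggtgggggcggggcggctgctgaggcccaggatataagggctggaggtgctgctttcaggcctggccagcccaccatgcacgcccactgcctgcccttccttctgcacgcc
GDF3, chr12:7695726-7696025: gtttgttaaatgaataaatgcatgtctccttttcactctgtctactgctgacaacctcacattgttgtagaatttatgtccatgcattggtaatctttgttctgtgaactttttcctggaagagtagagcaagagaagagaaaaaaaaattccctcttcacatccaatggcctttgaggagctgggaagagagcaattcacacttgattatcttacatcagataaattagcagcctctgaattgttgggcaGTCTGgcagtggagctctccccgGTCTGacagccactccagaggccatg
SMAD7, chr18:48950916-48951215: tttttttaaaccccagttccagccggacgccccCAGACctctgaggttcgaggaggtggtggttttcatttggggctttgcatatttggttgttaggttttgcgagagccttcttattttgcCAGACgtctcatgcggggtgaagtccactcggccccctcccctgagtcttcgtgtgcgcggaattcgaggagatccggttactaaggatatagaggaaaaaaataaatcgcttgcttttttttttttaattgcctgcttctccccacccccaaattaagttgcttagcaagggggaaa
The box was found 1 time in the NODAL window and 2 times in that of GDF3. For SMAD7 the box was found 2 times in the window shown, and 1 and 0 times in the others. It was found in 45.3% of all 35116 RefSeq promoter windows, so its presence does not set these genes apart. The palindromic box GTCTAGAC (0.202% of windows) and the letters TGTGGATT bound by FOXH1 (0.817%), which do not overlap CAGAC, were in none of the windows of the 8 genes matched, those other than LEFTY1 and LEFTY2.

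The other genes of the pathway were taken from lists by role. Of 53 listed genes 43 were in the table, and 0 passed edgeR's test in any comparison. DESeq2 also called 0 of the 43 in each. At an unadjusted p of 0.05 by edgeR, 1 of the 43, INHBE, passed in homozygous against wild-type cells, on the lower side (2.69% of all genes). In hemizygous against wild-type cells (0.87% of all genes) and between the mutants (0.765%) 0 passed. In hemizygous against wild-type cells 26 were above 0 and 17 below (median log2 fold change 0.03). In homozygous against wild-type cells 21 were above and 22 below (median -0.04), and between the mutants 13 were above and 30 below (median -0.09). Without overlap, 5 of the 43 were higher in hemizygous than in wild-type cells (8.13% of all genes) and 1 was lower (9.21%). In homozygous against wild-type cells 5 were higher (14.2%) and 8 lower (13.6%), and between the mutants 3 were higher (11%) and 2 lower (10.4%). Replicate 1 was above replicate 2 within every genotype for 22 of the 43, or 51.2%, beside 29.9% of all genes.

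Of 8 further ligands, INHBA, which encodes the Activin A chain, stood at 8.002 and 1.84 CPM in wild-type, at 6.62 and 1.23 CPM in hemizygous and at 0.947 and 1.65 CPM in homozygous libraries. Its log2 fold change in homozygous cells was -1.93 (SE 0.94), but it came from replicate 1, where the difference was -3.05, and was -0.16 between replicate 2 libraries. INHBE, another inhibin chain, was at 8.77 and 5.27 CPM in wild-type and at 3.50 and 3.52 CPM in homozygous libraries, a log2 fold change of -1.0015 (SE 0.36). TGFB3 had -0.39 (SE 0.32). All 3 had adjusted p = 1.00 by edgeR.

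Among 7 listed inhibitors and binding proteins, LTBP1, which stores latent TGF-beta in the matrix, had a log2 fold change of -0.45 (SE 0.20) in homozygous cells. FSTL1, a follistatin-like protein, had -0.35 (SE 0.25) in the same cells. FSTL3, which binds Activin, had 0.27 (SE 0.26). Of 7 other receptors and co-receptors, the type II TGF-beta receptor TGFBR2 had -0.60 (SE 0.33), the co-receptor TGFBR3 had -0.41 (SE 0.45) and ACVR1C, a type I receptor for Nodal, had 0.36 (SE 0.28). TGFBR2 is itself a described miR-302 target. It stood at 31.3 and 20.8 CPM in wild-type, 27.4 and 14.7 in hemizygous and 18.3 and 16.2 in homozygous libraries.

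Among 18 SMAD partners and regulators the gene farthest from wild-type was SKIL, which represses SMAD targets and is induced by the pathway. It stood at 272 and 147 CPM in wild-type, at 371.8 and 303.7 CPM in hemizygous and at 353 and 275 CPM in homozygous libraries. All mutant libraries were thus above both wild-type libraries, by log2 fold changes of 0.69 (SE 0.30) for hemizygous and 0.58 (SE 0.30) for homozygous cells, not called. Of the 18 genes, 3 were higher without overlap in hemizygous (8.13% of all genes) and 2 in homozygous cells (14.2%). Lower without overlap were 0 in hemizygous (9.21% of all genes) and 1 in homozygous cells (13.6%). SMAD6, the inhibitory SMAD of the BMP branch, had 0.34 (SE 0.17) and USP15, a deubiquitinase, -0.27 (SE 0.25) in homozygous cells.

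Of 11 target genes 5 were in the table, and the early mesendoderm factors EOMES, GSC and TBXT were not among them. FGF8, a growth factor of the early embryo, had a log2 fold change of 0.57 (SE 0.31) in homozygous cells and MIXL1, a mesendoderm homeobox factor, had 0.12 (SE 0.44). Replicate 1 was above replicate 2 within every genotype for 4 of the 5 targets (29.9% of all genes), all but NANOG. The median log2 fold change of the targets in homozygous cells was 0.12, and it was 0.94 without wild-type replicate 1 and -0.20 without wild-type replicate 2. In hemizygous cells it was 0.30, and it was 0.84 without wild-type replicate 1 and -0.056 without wild-type replicate 2. The hemizygous median of the ligands, -0.16, was 0.062 without wild-type replicate 1.

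**Figure D4:**
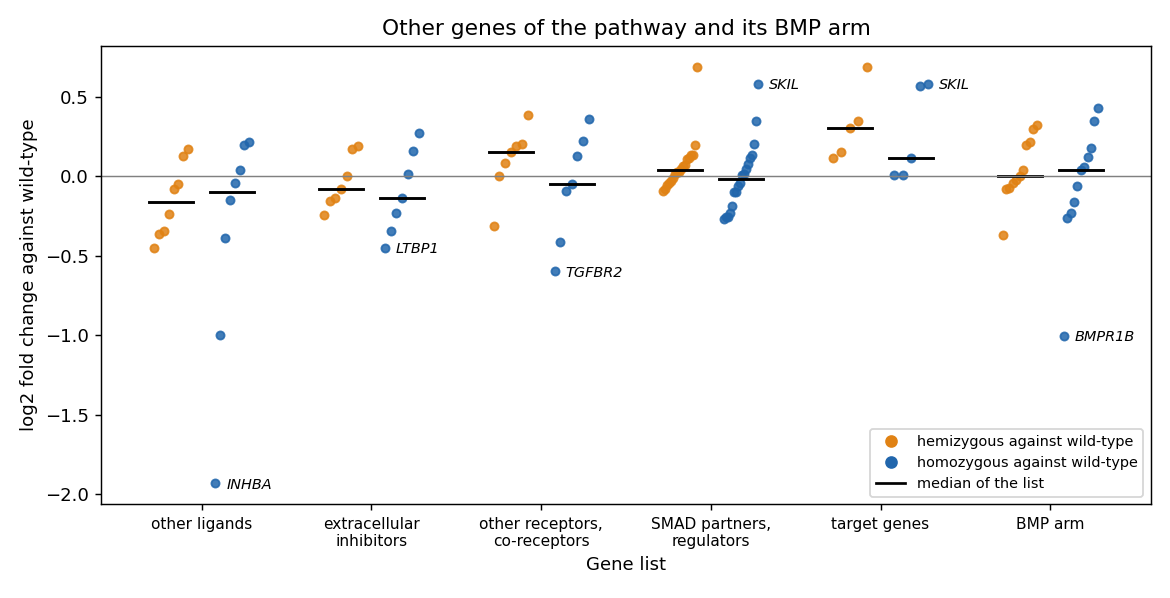
Log2 fold changes of hemizygous and of homozygous cells against wild-type for the other genes of the pathway and of the related BMP branch, 1 point per gene, grouped by role, with a bar at the median of each list and SKIL plotted both as a regulator and as a target. Medians lie between -0.16 (ligands) and 0.30 (targets), both in hemizygous cells, and each changes sign when 1 wild-type library is left out, and the gene farthest from 0 in homozygous cells is INHBA at -1.93.

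The genes whose pattern over the 6 libraries was most like that of LEFTY1 were found by the root mean square distance of log2 CPM after centring each gene, among 14045 genes with a RefSeq symbol and a mean of at least 1 CPM. The nearest was CD99, a surface glycoprotein, at a distance of 0.72, with 8.43 and 10.8 CPM in wild-type, 3.62 and 1.08 in hemizygous and 4.14 and 0.418 in homozygous libraries. LEFTY2 came next at 0.83, followed by NUP160, a nuclear pore subunit (0.95), CDX4, a caudal homeobox factor (0.96), and CYP26A1, which breaks down retinoic acid (0.98). For LEFTY2 the nearest were ADM, a vasoactive peptide (0.31), CYP51A1, an enzyme of sterol synthesis (0.37), CDX4 (0.39), NUP160 (0.46) and SORBS2, an adaptor protein (0.46). LEFTY1 stood at rank 2164 in that order. With 6 libraries, 2 per genotype, many genes share such a pattern.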

How the data were processed

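Ago2 iCLIP was measured in 6 libraries, 2 for each of 3 Dicer genotypes, which were grouped by their titles. The deposited table holds whole-number counts per gene that the authors did not normalize, and its columns were tied to samples by their descriptions. Per the submitters' processing notes the build was hg38. Not given in the sources used here: aligner, read counter, gene annotation, strandedness and collapsing of molecular identifiers. The lowest row total was 132. IgG control libraries were not used here.

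After TMM scaling, genes were tested in edgeR 4.0.16 (R 4.3.3) by its quasi-likelihood F test, with a mean for each genotype over all 6 libraries and Benjamini-Hochberg adjustment over 16199 genes; filterByExpr kept every row. A gene was called at an adjusted p under 0.05. CPM use TMM library sizes, log2 CPM a prior count of 1, and SE is the fold change over the root of its F value. The pipeline was also run on simulated counts without an effect of replicate number. That run does not show how well it finds differences in these libraries.

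The members, pathway lists and marker lists were chosen with earlier results of these data known. A listed pathway target is not reported here and is left out of the counts. Named genes were the 10 members, DICER1 and AGO2 as checks, the 3 genes of each other list farthest from 0 in homozygous against wild-type cells at a mean of at least 1 CPM, and the 5 genes nearest to each LEFTY; other genes of a list were named after their values were seen. All 10 symbols, and 14750 of 16199 rows, matched RefSeq GRCh38.p14.

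Alternatives were RLE and library-size scaling, no filter or 20 counts in 2 libraries, DESeq2 1.42.0, only the genotypes compared, the replicate number as a block, LEFTY1 and LEFTY2 summed, and each library left out. For the replicate block alone, the numbers were taken to pair the libraries, which the labels do not state. The main fit did not pair them. The pairing was read from these same counts, where the gaps between replicate 1 and 2 correlated across genes. The correlation was 0.74 between wild-type and hemizygous, 0.35 between wild-type and homozygous and 0.47 between the mutants. Library depth was 38164848 to 52924532 counts.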

Additional observations from a re-analysis of the deposited data

How the results depend on the processing

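DESeq2 was run only on all 6 libraries with its own size factors. LEFTY1 aside in the homozygous comparisons, no member was called by DESeq2 or by edgeR under any alternative that left no library out. LEFTY1 and LEFTY2 kept their sign against wild-type under every alternative. LEFTY1 ran from -4.14 to -0.96 in hemizygous and from -3.60 to -2.18 in homozygous cells (log2 fold change throughout). LEFTY2 ran from -2.16 to -0.31 and from -2.32 to -0.55. The summed pair had -1.45 and -1.92. With the replicate block, the paired fit, the calls of members did not change. LEFTY2 then had -1.42 (SE 0.17) in homozygous cells, where 2 genes of 16199 had a smaller p by edgeR (adjusted p = 0.274), and -1.20 (SE 0.17) in hemizygous cells, where 8 genes did (adjusted p = 0.269). LEFTY1 had -2.30 (SE 0.55) in hemizygous cells.

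Over all genes, DESeq2 called 7 in hemizygous against wild-type, 10 in homozygous against wild-type and 10 between the mutants, where edgeR called 0 in each. With the replicate block edgeR called 1 in hemizygous against wild-type and 1 between the mutants. Leaving out a library gave 0 to 2, 0 to 1 and 0 to 3 called genes.

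Small differences changed sign. With the replicate block NODAL was at 0.10 in hemizygous and 0.11 in homozygous cells and at 0.0034 between the mutants, GDF3 at 0.018 in homozygous and SMAD3 at 0.0023 in hemizygous cells. SMAD3 in hemizygous cells was at 0.0031 with RLE and 0.0029 with DESeq2, and ACVR2B between the mutants at 0.0028 with library size only. The cause was not tested.

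Leaving out each library gave these ranges in hemizygous against wild-type: NODAL -0.71 to 1.19, GDF3 -0.20 to 0.60, ACVR1B -0.18 to 0.21, SMAD3 -0.061 to 0.079 and SMAD7 -0.57 to 0.95. In homozygous against wild-type they were NODAL -0.74 to 1.15, GDF3 -0.35 to 0.43, ACVR1B -0.074 to 0.22, ACVR2B -0.048 to 0.36, SMAD3 -0.15 to 0.085 and SMAD7 -0.99 to 0.40. Between the mutants they were LEFTY1 -1.78 to 1.43, LEFTY2 -1.17 to 0.77, NODAL -0.43 to 0.50, GDF3 -0.45 to 0.19, ACVR1B -0.14 to 0.23, ACVR2B -0.23 to 0.18, SMAD2 -0.031 to 0.074, SMAD3 -0.15 to 0.086 and SMAD7 -1.01 to 0.11. A genotype with 1 library left is assumed to vary like the others.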

Other observations

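The BMP branch shares SMAD4 with the Nodal branch and acts through SMAD1, SMAD5 and SMAD9. Of 12 listed genes of this branch 11 were in the table and 0 passed edgeR's test in any comparison, with 0 at an unadjusted p of 0.05; DESeq2 also called 0. In homozygous against wild-type cells 6 were above 0 and 5 below, with a median log2 fold change of 0.04. BMPR1B, a type I BMP receptor, had -1.003 (SE 0.74), SMAD9 had 0.43 (SE 0.23) and BMP4, a ligand, had 0.35 (SE 0.17). BMP4 stood at 15.4 and 13.6 CPM in wild-type, at 15.6 and 18.1 CPM in hemizygous and at 17.3 and 19.7 CPM in homozygous libraries, so all mutant libraries lay above both wild-type libraries. Of the 11 genes, 3 were higher without overlap in hemizygous (8.13% of all genes) and 2 in homozygous cells (14.2%). Lower without overlap were 0 in hemizygous (9.21% of all genes) and 1 in homozygous cells (13.6%).

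Of 18 described targets of the miR-302 and miR-372 3p arms 17 were in the table, LEFTY1 and LEFTY2 among them. In homozygous against wild-type cells 5 were above 0 and 12 below, with a median log2 fold change of -0.07 beside 0.00 for all genes. The list holds LEFTY1, which was chosen on this comparison, and is not independent of it. CDKN1A, a cell cycle inhibitor, had -0.99 (SE 0.45), which came from replicate 1, where the log2 difference was -1.77, and was 0.050 between replicate 2 libraries. It stood at 112 and 44.6 CPM in wild-type and at 32.8 and 46.2 CPM in homozygous libraries, which overlapped. TGFBR2 had -0.60 (SE 0.33), while LATS2, a kinase of the Hippo pathway, had 0.23 (SE 0.17). LEFTY1 aside in the homozygous comparisons, none of the 17 was called by edgeR or DESeq2 in any comparison.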
